A study of Mus musculus with 12 samples.

Results

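The 10 genes described here, Sox2, Foxa2, Foxp1, Foxp2, Elf3, Irx3, Irx5, Esrp1, Lsr and Spint2, encode transcription factors, a splicing factor and junction or surface proteins of the branching airway epithelium. They were taken by symbol from a table of 31078 genes, all 10 were found there, and all 10 passed the filter on low counts that kept 9519 genes. RNA sequencing was done on lungs of C57BL/6 mouse embryos at embryonic day 12.5, with left and right lungs kept apart. The 4 groups of 3 libraries each were Intu knockout left, Intu knockout right, wild-type left and wild-type right. Embryos of both genotypes came from natural matings of parents with an Intu knockout allele. Which part of Intu the allele removes, whether each library of a group is another embryo, and whether lungs were pooled is not stated in the labels, and p-values here speak only to the spread among these libraries, which may be technical. Intu encodes a protein of the CPLANE complex, which is needed to build primary cilia, and the comparison of genotypes asks what its loss does in the lung through Hedgehog signalling.

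The lung epithelium starts as a tube of endoderm that grows and branches into the surrounding mesenchyme. Its tips hold distal progenitors, and the stalks behind them become conducting airway. Sox2 marks and maintains the proximal, airway-forming epithelium. The forkhead factor Foxa2 opens endodermal genes, and the related repressors Foxp1 and Foxp2 are known from the distal epithelium, with Foxp1 also made in mesenchyme and vessels. Cells of an epithelium are sealed to each other by tight junctions and their surface proteases are held in check by inhibitors. Hedgehog ligand is made by this epithelium and received mainly by the mesenchyme. In whole lungs, fewer epithelial cells and less RNA per epithelial cell cannot be told apart.

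Totals ran from 10290103 to 10753386 counts per library, over the chromosomes present in the table (1 to 7, 10, X and part of 8). Levels are given as CPM, counts scaled to the depth of each library with TMM factors. The Hedgehog target Gli1 averaged 176 ± 9.07 CPM in knockout left and 164 ± 15.1 CPM in knockout right lungs, against 367 ± 25.1 CPM in wild-type left and 359 ± 16.7 CPM in wild-type right lungs (SD, n = 3 each). Gli1 fell by 1.1 on the log2 scale (adjusted p = 1.54e-08, edgeR). Intu itself averaged 26.9 ± 0.67 and 29.5 ± 1.69 CPM in knockout left and right lungs, against 31.2 ± 1.13 and 31.8 ± 3.1 CPM in the wild-type left and right (log2 difference -0.16, adjusted p = 0.162), and counts over the whole gene cannot show a deletion of part of it. The summed level of the 10 genes was 1298 to 1376 CPM in knockout left and 1280 to 1315 CPM in knockout right lungs, against 1302 to 1370 CPM in wild-type left and 1233 to 1347 CPM in wild-type right lungs, so the groups overlapped. Other epithelial genes were present in every group, among them the junction gene Cldn4 (79.7 and 77.3 CPM in knockout left and right lungs, 90.3 and 82.7 CPM in the wild-type left and right, as means of 3 libraries).

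The genes lie on 7 chromosomes of GRCm38, and Irx3 and Irx5 are neighbours. Irx3 spans chr8:91798525-91802067 on the minus strand and Irx5 spans chr8:92357625-92376286 on the plus strand, 555.6 kb apart. Sox2 (chr3:34650405-34652461, plus strand) lies 5.879 Mb from Intu (chr3:40531286-40704774). Elf3 lies at chr1:135253575-135258568 and Lsr at chr7:30957770-30973464, both on the minus strand. Foxa2 lies at chr2:148042877-148046969, Foxp1 at chr6:98925338-99522721, Esrp1 at chr4:11331933-11386783 and Spint2 at chr7:29256323-29281912, all on the minus strand, and Foxp2 at chr6:14901349-15441977 on the plus strand. In the annotation, 946 exon bases of Lsr are shared with the antisense gene Gm4673, 124 of Irx3 with Irx3os and 162 of Elf3 with Gm26642. Whether counting used strand is not given in the sources used here, so reads from these stretches cannot be assigned with certainty.

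RefSeq promoter entries (GRCm38.p6) were matched for 7 of the 10 genes: Sox2, Foxa2, Foxp1, Elf3, Irx3, Lsr and Spint2. The 250 bases before each start were searched on both strands for 4 motifs: the forkhead motif TGTTTAC, the GLI motif GACCACCCA, the SOX motif CATTGTT and the E-box CAGGTG, which repressors of the Zeb and Snai families bind. The 4 motifs' letters differ, and no matches overlapped in these windows. The E-box was the one motif found, with 4 copies before Lsr, 3 before Spint2, and 1 each before Elf3 and before the most downstream of the 3 starts of Foxp1. Of 32851 mouse promoter windows of this length, 17.2% held at least 1 copy, 0.247% at least 3 and 0.0426% at least 4. The windows of Sox2, Foxa2 and Irx3 held none of the 4 motifs. The sequences before Lsr, Elf3 and Sox2, which carry the results below, are printed 5′ to 3′ on the strand of the gene, with capitals marking CAGGTG or its reverse complement CACCTG. The stretch of Elf3 is the 154 bases that lie before the counted gene. The windows of Irx3, of all 3 starts of Foxp1 and of starts 2 and 3 of Foxa2 lie inside the counted genes and are not shown. The E-box of Foxp1 thus also lies inside the counted gene.
Lsr, chr7:30973470-30973719, minus strand: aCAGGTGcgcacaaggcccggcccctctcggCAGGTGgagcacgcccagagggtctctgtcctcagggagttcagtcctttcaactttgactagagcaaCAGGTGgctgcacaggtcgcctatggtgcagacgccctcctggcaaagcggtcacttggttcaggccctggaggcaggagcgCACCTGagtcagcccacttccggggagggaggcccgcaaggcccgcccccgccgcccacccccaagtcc
Elf3, chr1:135258569-135258722, minus strand: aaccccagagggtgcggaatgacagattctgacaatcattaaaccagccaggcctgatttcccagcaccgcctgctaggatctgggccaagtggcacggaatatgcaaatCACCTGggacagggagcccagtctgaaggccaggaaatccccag
Sox2, chr3:34649745-34649994, plus strand: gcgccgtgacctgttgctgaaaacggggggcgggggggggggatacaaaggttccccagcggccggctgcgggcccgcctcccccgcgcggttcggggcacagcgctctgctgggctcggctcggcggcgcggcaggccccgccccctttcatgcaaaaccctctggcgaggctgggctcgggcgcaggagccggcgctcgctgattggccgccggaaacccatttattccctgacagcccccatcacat
A motif match describes letters only and was not set against binding data.

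Levels of different genes were compared per kb of exon. Irx3 had the highest level, with a median over the 12 libraries of 67.7 CPM per kb, and Elf3 the lowest, with 4.96 CPM per kb. Between them came Foxa2 (44.9), Spint2 (44.6), Irx5 (32.8), Lsr (28.0), Sox2 (20.1), Foxp2 (17.4), Esrp1 (15.95) and Foxp1 (15.4 CPM per kb). Irx3 lay above Foxa2, Spint2 above Irx5 and Foxp1 above Elf3 with no overlap of their ranges over libraries. The ranges of the other neighbours in this order overlapped, and Foxa2 exceeded Spint2 in 2 of 12 libraries. Among the 9519 tested genes, 91.4% were at or below Irx3 on this scale, and 39.4% at or below Elf3.

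**Figure D1:**
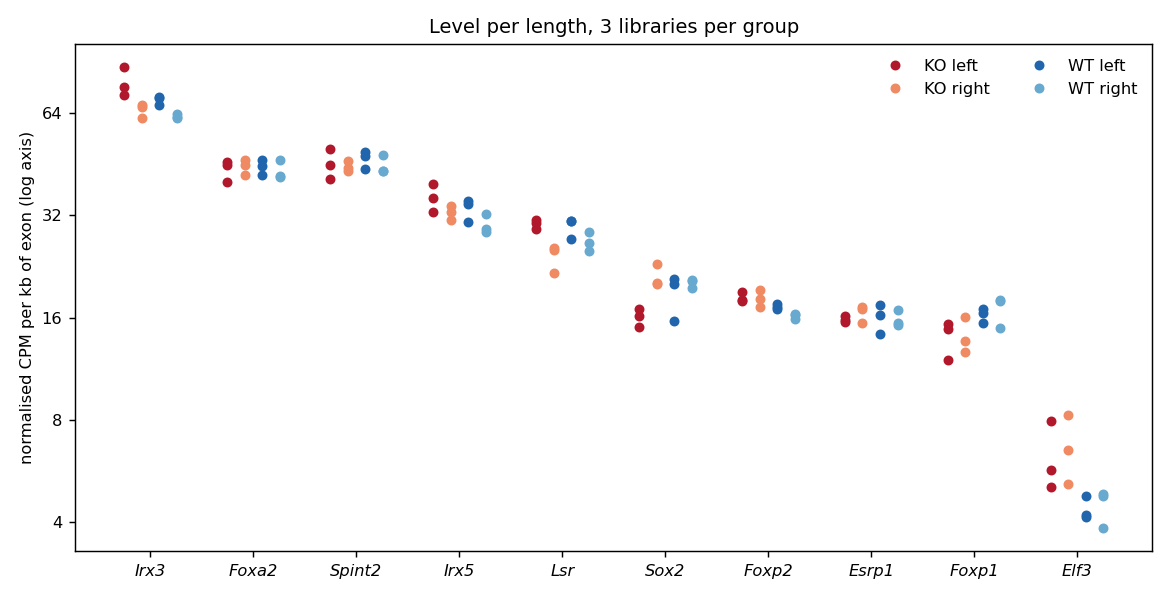
Normalised CPM per kb of exon (log axis) of the 10 genes, in falling order of their median, with 1 point per library and 3 libraries for each of the 4 groups. Irx3 stands above all others and Elf3 below all others, while the groups of one gene lie close together.

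Elf3, an ETS-family transcription factor of epithelia, had the largest genotype difference of the 10 genes. It was measured at 11.3, 17.5 and 12.6 CPM in knockout left lungs and at 11.4, 18.2 and 14.5 CPM in knockout right lungs. In wild-type lungs it was measured at 9.13, 9.25 and 10.6 CPM on the left and at 8.503, 10.7 and 10.5 CPM on the right. All 6 knockout libraries lay above all 6 wild-type libraries, a separation in this direction that 1.38% of tested genes had, and the 2 knockout libraries numbered 2 were the highest. Averaged over both sides, the log2 difference was 0.54 (SE 0.137, 95% interval 0.25 to 0.84, adjusted p = 0.0329, edgeR's quasi-likelihood test), a fold of 1.46. Elf3 was the 1 gene called of the 10, where 5.7% of all tested genes were called, 2.08% as higher. The call depended on treating the 12 libraries as independent. With both sides of a number added up, so that each pair counts once, the difference was the same but the adjusted p was 0.203 and 0 of 10 genes were called (1.38% of all genes). With limma-voom and a random effect for pairs, the adjusted p of Elf3 was 0.0711 and again 0 of 10 were called (3.61%).

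The size of the Elf3 difference also rested in part on the knockout pair numbered 2. Without that pair it was 0.34 (adjusted p = 0.108), and without any single library it was between 0.44 and 0.62 (adjusted p 0.0146 to 0.0765, below 0.05 in 4 of 12). Leaving out the pair WT 1, WT 2, WT 3 or IntuKO 3 gave an adjusted p for Elf3 of 0.142, 0.11, 0.0627 and 0.0836, and leaving out IntuKO 1 gave 0.00653. The same 2 libraries also stood apart in Pdk1, a kinase that limits the use of pyruvate in mitochondria. Pdk1 was at 193 and 192 CPM there, against 82.3 to 110 CPM in the other knockout libraries and 71.3 to 91.2 CPM in the wild-type libraries. The part of whatever sets this pair apart in the Elf3 difference was not tested, beyond the value of 0.34 without it. The antisense partner Gm26642 had 6 to 23 counts per library against 89 to 190 for Elf3, and its own genotype difference was 0.09 (SE 0.312). By the root-mean-square difference of z-scored log2 CPM over the 12 libraries, the genes most like Elf3 were Tbx3os1 (0.295), Sgpp2 (0.325) and Syt6 (0.332).

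**Figure D2:**
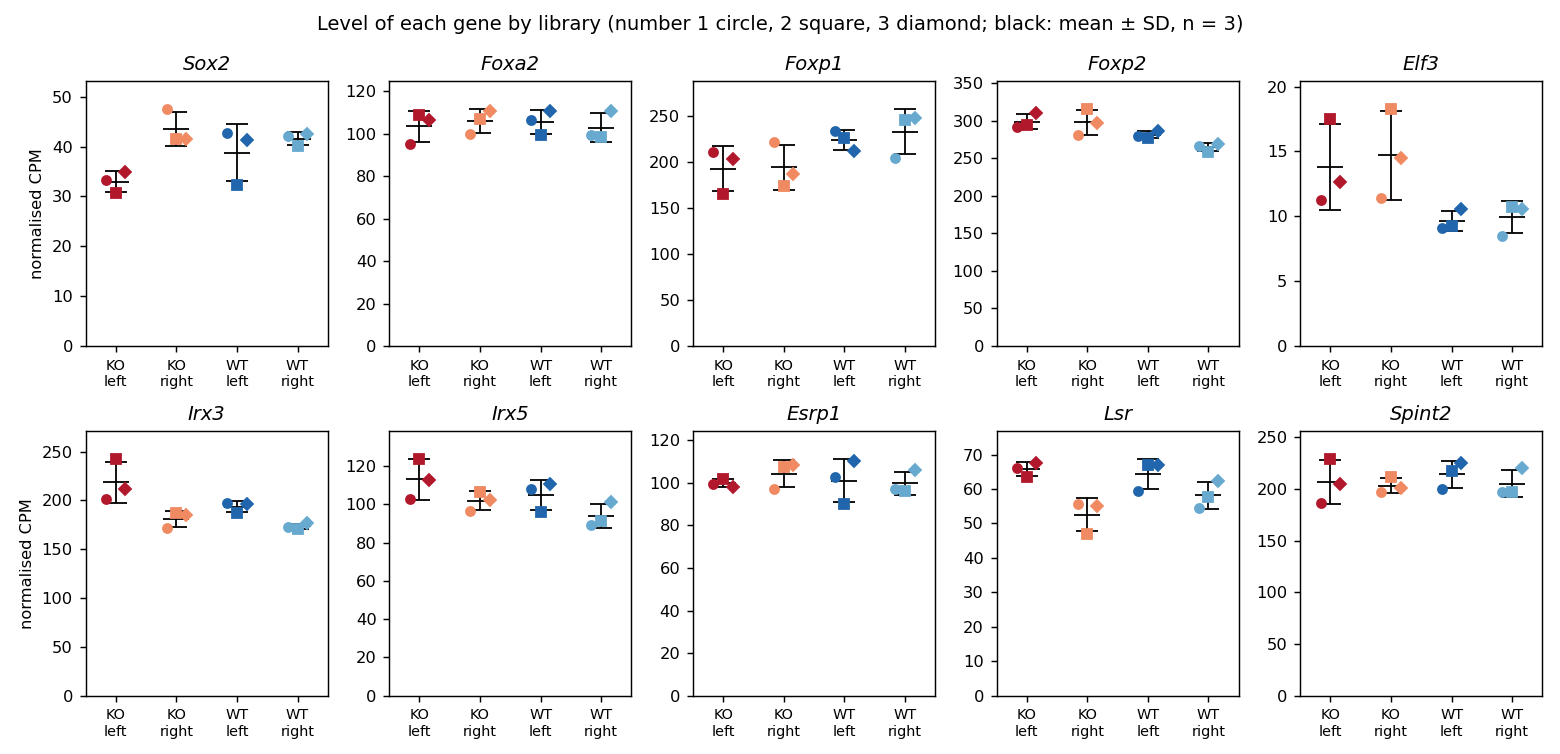
Normalised CPM of each gene (y axis, from 0) in each library, by genotype and side on the x axis. Symbols give the number of the library and black bars the mean ± SD of 3 libraries. Elf3 separates the genotypes, while Irx3, Lsr and Sox2 separate the sides within the knockout.

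The forkhead pair Foxp1 and Foxp2, related repressors, lay on opposite sides of wild type, and neither passed the threshold. Foxp1 was measured at 211, 165 and 203 CPM in knockout left and 222, 174 and 187 CPM in knockout right lungs. In wild type it was at 233, 226 and 212 CPM on the left and 205, 246 and 248 CPM on the right. The genotypes did not overlap on the left but did on the right, and the 2 knockout libraries numbered 2 were the lowest of all 12. Averaged over the sides, Foxp1 differed by -0.24 (SE 0.0743, 95% interval -0.40 to -0.08, adjusted p = 0.0817, edgeR). DESeq2 gave Foxp1 an adjusted p of 0.0309, and the summed counts gave 0.236. Without the knockout pair numbered 1 the Foxp1 difference was -0.32 (adjusted p = 0.0173), and without pair number 2 it was -0.15 (adjusted p = 0.229). Foxp1 was also more variable than genes of like abundance. The pooled SD of its log2 CPM within groups was 0.156, against a median of 0.0782 over genes within 2-fold of its level.

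Foxp2 was measured at 292, 294 and 310 CPM in knockout left and 281, 315 and 297 CPM in knockout right lungs. In wild type it was at 280, 277 and 286 CPM on the left and 267, 259 and 269 CPM on the right. Knockout libraries lay above wild-type libraries without overlap within each side. Averaged over the sides, Foxp2 differed by 0.13 (SE 0.0363, 95% interval 0.05 to 0.21, adjusted p = 0.053, edgeR), the narrowest interval of the 10 genes. DESeq2 called Foxp2 (adjusted p = 0.0226), and the summed counts gave 0.234. Between sides, every wild-type left library exceeded every wild-type right library of Foxp2, as for 4.32% of all genes, and the paired difference was 0.09 (adjusted p = 0.844). Foxp2 varied less than genes of like abundance, with a pooled SD of 0.0508 against a median of 0.0766.

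The Iroquois homeodomain factors Irx3 and Irx5, expressed in the lung epithelium of the mouse embryo, did not pass the threshold between genotypes. Irx3 differed by 0.12 (SE 0.0461, adjusted p = 0.164) and Irx5 by 0.11 (SE 0.056, adjusted p = 0.289) in edgeR. Without the knockout pair numbered 1, Irx3 differed by 0.17 (adjusted p = 0.0497). Their values by library are given with the sides.

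For the other 5 genes the genotype difference averaged over sides was between -0.08 and 0.02, and the intervals give the sizes that these data leave. The endodermal factor Foxa2 averaged 104 ± 7.39 and 106 ± 5.59 CPM in knockout left and right lungs, against 106 ± 5.59 and 103 ± 6.9 CPM in the wild-type left and right, with a difference of 0.01 (95% interval -0.10 to 0.12, edgeR). Esrp1, which directs epithelial splicing of transcripts such as Fgfr2, averaged 99.8 ± 1.84 and 104 ± 6.21 CPM in knockout left and right lungs, against 101 ± 10.1 and 99.8 ± 5.43 CPM in the wild-type left and right, with a difference of 0.02 (-0.09 to 0.14). Gene counts do not show its splicing activity. Spint2, a Kunitz-type inhibitor of serine proteases at the cell surface, averaged 207 ± 21.3 and 203 ± 7.37 CPM in knockout left and right lungs, against 214 ± 12.9 and 205 ± 13.3 CPM in the wild-type left and right, with a difference of -0.03 (-0.15 to 0.08). Differences of Lsr (-0.06, -0.18 to 0.06) and Sox2 (-0.08, -0.24 to 0.07) had intervals that also hold 0. By side, Sox2 differed from wild type by -0.23 in left lungs (95% interval -0.46 to -0.01, adjusted p = 0.416) and by 0.07 in right lungs (-0.15 to 0.28, adjusted p = 0.854). Lsr differed by 0.03 in left lungs (-0.14 to 0.20) and by -0.14 in right lungs (-0.32 to 0.03). Adjusted p-values of these 5 genes, averaged over sides, lay between 0.571 and 0.961.

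**Figure D3:**
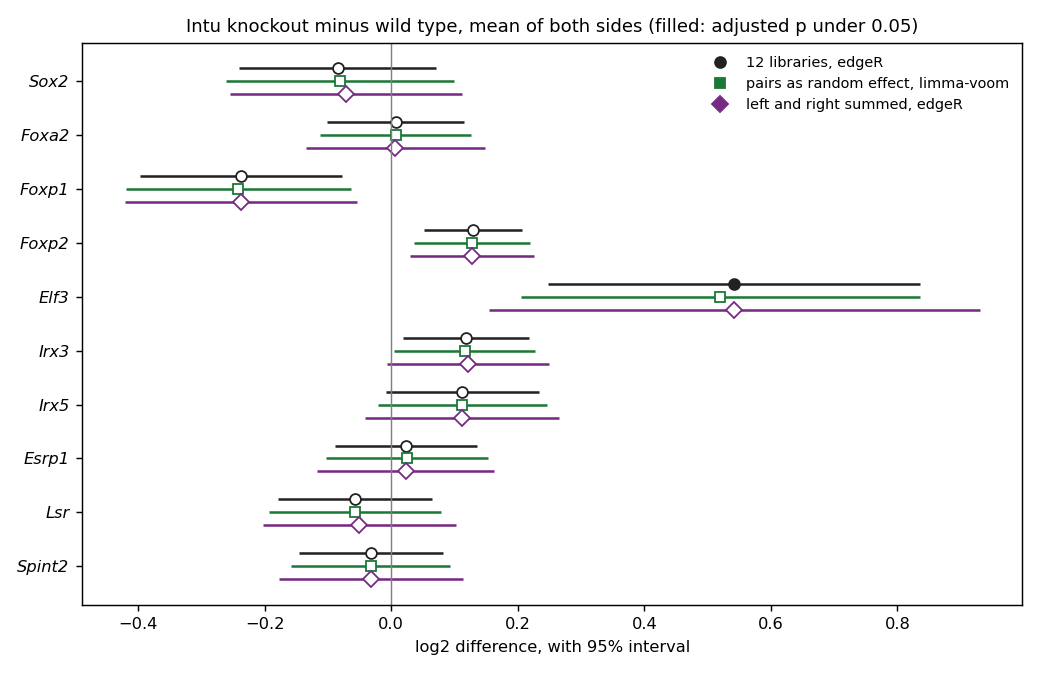
Log2 difference, Intu knockout minus wild type averaged over both sides, for the 10 genes, with 95% intervals in 3 fits. Filled symbols have an adjusted p under 0.05. Elf3 in the fit of 12 libraries is the one filled symbol, and the 3 fits give nearly the same differences.

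Over the 10 genes the median log2 difference was 0.01, beside 0.00362 over all tested genes, and 6 of 10 were positive. Within left lungs 0 of 10 genes were called by edgeR (1.18% of all genes), with 3 at an unadjusted p under 0.05 (10.9%), and 0 by DESeq2. Knockout and wild-type left libraries did not overlap for Foxp2, Elf3 and Irx3, higher in the knockout, and for Foxp1, lower, which 15.3% of all genes showed in one direction or the other. Within right lungs 0 of 10 were called by edgeR (1.51% of all genes), again with 3 at an unadjusted p under 0.05 (13.5%), and 0 by DESeq2. Groups did not overlap for Foxp2 and Elf3, both higher in the knockout, beside 18.2% of all genes.

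The largest differences between sides were those of Irx3, Lsr and Sox2 in the knockout, and these passed the threshold when left and right libraries of one number were compared as pairs. Irx3 was measured at 201, 242 and 212 CPM in knockout left lungs, against 172, 187 and 185 CPM in knockout right lungs. Wild-type left lungs had 198, 187 and 196 CPM of Irx3, against 173, 171 and 176 CPM in wild-type right lungs. In both genotypes every left library exceeded every right library, which 0.305% of all tested genes did. With pairs as blocks the left minus right log2 difference of Irx3 was 0.27 in the knockout (SE 0.0505, adjusted p = 0.0129, edgeR), a fold of 1.2, and 0.16 in wild type (SE 0.0508, adjusted p = 0.259). Irx3os, the antisense partner, differed by 0.30 between knockout sides (adjusted p = 0.578) and had 45 to 101 counts per library.

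Lsr encodes angulin-1, which recruits tricellulin to the corners where 3 cells meet, and is also a lipoprotein receptor known from liver. It was measured at 66.1, 63.6 and 67.6 CPM in knockout left lungs, against 55.7, 47.1 and 55.1 CPM in knockout right lungs. Wild-type left lungs had 59.4, 66.9 and 66.9 CPM of Lsr, against 54.5, 57.7 and 62.3 CPM in wild-type right lungs. The sides did not overlap in the knockout, as for 3.97% of all genes with left higher, and overlapped in wild type. The paired left minus right difference was 0.32 in the knockout (SE 0.0639, adjusted p = 0.0183, edgeR), a fold of 1.25, and 0.15 in wild type (SE 0.0631, adjusted p = 0.651). The antisense gene Gm4673 differed by 0.06 between knockout sides (adjusted p = 0.919). It had 124 to 199 counts per library, against 490 to 715 for Lsr, and shares 946 exon bases with Lsr. The part of reads from this shared stretch in the Lsr values was not tested.

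Sox2 went the other way. It was measured at 33.3, 30.8 and 34.9 CPM in knockout left lungs, against 47.5, 41.6 and 41.5 CPM in knockout right lungs. Wild-type left lungs had 42.8, 32.2 and 41.3 CPM of Sox2, against 42.0, 40.1 and 42.6 CPM in wild-type right lungs. The sides did not overlap in the knockout, as for 4.21% of all genes with left lower, and in wild type the left library numbered 2 was the one that stood low. The paired difference was -0.40 in the knockout (SE 0.0805, adjusted p = 0.021, edgeR), a fold of 0.758, and -0.11 in wild type (SE 0.0788, adjusted p = 0.94).

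In the paired fit 3 of 10 genes were called between knockout sides, Irx3 and Lsr as higher on the left and Sox2 as lower, where 0.452% of all genes were called (0.263% higher, 0.189% lower). The 10 genes were chosen with earlier results of these data known, so their share beside that of all genes is no test. In the fit without pairs 0 of 10 were called (0.0% of all genes), with 3 at an unadjusted p under 0.05 (3.76%), and 0 by DESeq2. Between wild-type sides 0 of 10 were called by edgeR, in the fit without pairs (0.0105% of all genes; at an unadjusted p under 0.05, 1 of the 10 and 2.62% of all genes) and with pairs (0.662%; 3 of the 10 and 6.63%), and 0 by DESeq2. With only 2 knockout pairs, the Irx3 and Lsr calls held without pair number 1 (differences 0.29 and 0.37, adjusted p = 0.0484 each). Without pair number 2 Irx3 was at 0.21 (adjusted p = 0.128), Lsr at 0.27 (0.191) and Sox2 at -0.38 (0.128). Without pair number 3 Irx3 was at 0.30 (adjusted p = 0.0628), Lsr at 0.34 (0.169) and Sox2 at -0.47 (0.055), and without pair number 1 Sox2 was at -0.34 (0.176).

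Irx5, the neighbour of Irx3, was measured at 103, 124 and 113 CPM in knockout left lungs, against 96.8, 107 and 102 CPM in knockout right lungs. Wild-type left lungs had 108, 95.9 and 111 CPM of Irx5, against 89.3, 91.3 and 101 CPM in wild-type right lungs. The sides overlapped in both genotypes, yet within each pair the left library was the higher. The paired difference was 0.15 in the knockout (SE 0.0564, adjusted p = 0.377, edgeR) and 0.16 in wild type (SE 0.057, adjusted p = 0.423). Irx3, Irx5 and Lsr were higher on the left in 6 of 6 pairs, which 3.46% of all genes were. Sox2 was lower on the left in all knockout pairs (-0.51, -0.43 and -0.25) and in wild type differed by 0.02, -0.32 and -0.04. By the z-score measure over 12 libraries, the genes most like Irx3 were Mogs (0.354), Sox18 (0.36) and B4galt1 (0.362), and Irx5 ranked 5 with 0.455. Those most like Lsr were Sgta (0.479), Ccdc124 (0.483) and Ppp4c (0.486), and those most like Sox2 were Papolb (0.56), Ptprt (0.57) and Elfn1 (0.618).

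**Figure D4:**
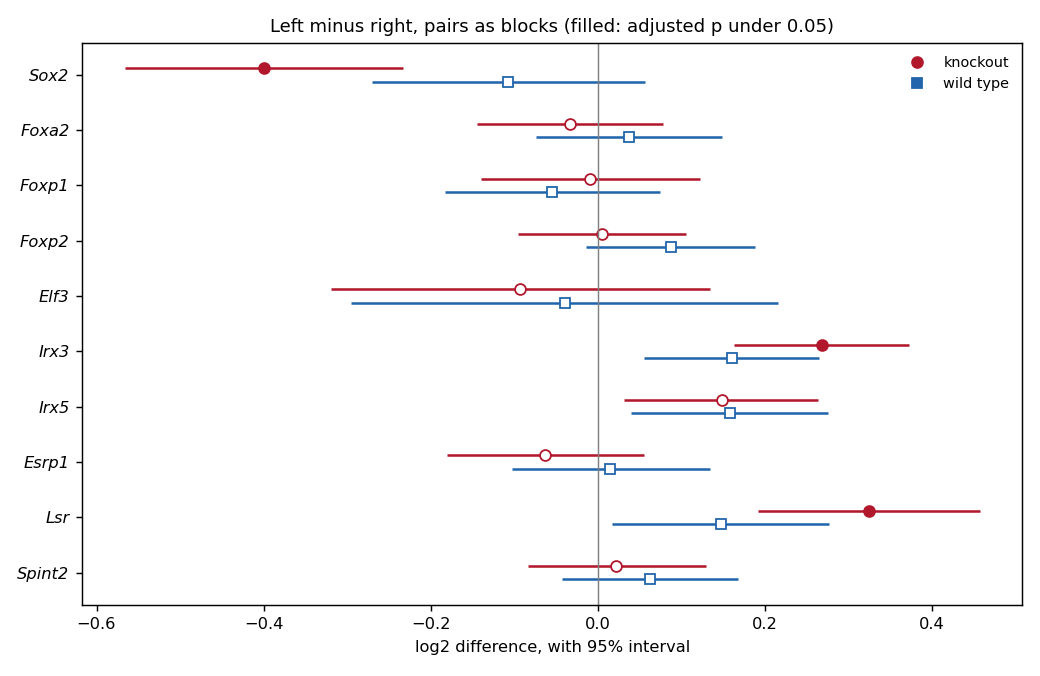
Log2 difference, left minus right, of the 10 genes in Intu knockout and wild-type lungs, with pairs as blocks and 95% intervals. Filled symbols have an adjusted p under 0.05. Irx3 and Lsr are filled above 0 and Sox2 below 0 in the knockout, and their wild-type points lie on the same side of 0.

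Over both genotypes together, a comparison added after the values were seen, the paired left minus right difference was 0.21 for Irx3 (SE 0.0358, adjusted p = 0.00126, edgeR), 0.24 for Lsr (SE 0.0449, adjusted p = 0.00496) and -0.25 for Sox2 (SE 0.0563, adjusted p = 0.0184). Irx5 differed by 0.15 (SE 0.0401, adjusted p = 0.0585). Thus 3 of 10 genes were called, where 1.33% of all genes were, which is again no test, given how the 10 genes were chosen. Leaving out any of the 6 pairs kept the calls of Irx3 (adjusted p up to 0.0125) and Lsr (up to 0.0398). Sox2 lost its call without wild-type pair 2 (-0.20, adjusted p = 0.162) and without knockout pair 1 (-0.22, adjusted p = 0.0873). Whether the genotypes differ in these side differences was tested as an interaction, and 0 of 10 genes were called by edgeR (0.0% of all genes without pairs, 0.021% with pairs) or DESeq2. At an unadjusted p under 0.05 there were 0 of 10 without pairs (1.3% of all genes) and 1 of 10 with pairs (4.28%), namely Sox2. Its interaction in the paired edgeR fit was -0.29 (SE 0.113, adjusted p = 0.998).

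Markers of other tissues were set beside these side differences. The liver genes Alb and Afp were high in 1 knockout left library, number 1, with 40.3 CPM of Alb there against at most 2.70 CPM in the other 11 libraries. The summed level of the neighbouring endoderm list (6 of 12 genes present) was 5.56 to 88.2 CPM in knockout left lungs, against 4.42 to 6.93 CPM in knockout right lungs, and 6.55 to 10.01 CPM in wild-type left against 6.32 to 9.08 CPM in wild-type right lungs. Of its 3 tested genes, Alb (3.61, adjusted p = 8.45e-05) and Afp (1.87, adjusted p = 0.00353) were called between knockout sides in the paired edgeR fit, and 0 between wild-type sides. Without that pair the knockout side difference was 0.37 for Lsr (0.32 with it), 0.29 for Irx3 (0.27 with it) and -0.34 for Sox2 (-0.40 with it). Leaving out a pair removes all that is particular to it, so the part of liver RNA in these differences was not tested. Genes of neural crest and neurons, some of which also use Sox2, had 160 to 172 CPM in knockout left against 170 to 172 CPM in knockout right lungs, and 0 of 12 tested genes of that list were called between knockout sides in the paired edgeR fit (median 0.07). The same list had 170 to 224 CPM in wild-type left and 198 to 217 CPM in wild-type right lungs. Most of each sum came from Erbb3, so the sums say little about the other genes of the list. Erbb3 averaged 116 and 124 CPM in knockout left and right lungs, against 128 and 126 CPM in the wild-type left and right. Between wild-type sides, 10 of the list's 12 differences were negative, as for Sox2, the median was -0.29, and Stmn2 was called lower on the left (-0.66, adjusted p = 0.0225). Of the list's 12 tested genes 7 fell in the knockout (5 with sides summed), among them Stmn2 (-1.43, adjusted p = 7.5e-05), Phox2a (-2.14, 0.00036) and Hand2 (-1.75, 0.00134), with a median of -0.62. Their part in the Sox2 values was not tested. Of 12 mesenchymal genes, Lum was called higher on the left in both genotypes (0.39 in the knockout, adjusted p = 0.0331, and 0.38 in wild type, adjusted p = 0.0346), and Prrx1 lower on the left in wild type (-0.43, adjusted p = 0.00384). Their medians were 0.01 in each genotype, beside medians near 0 over all genes. Of 5 mesothelial genes, Lrrn4 was called lower on the left in wild type (-0.30, adjusted p = 0.0458) and 0 were called in the knockout, and of 9 endothelial genes 0 were called in either genotype. The part of these cell types in the side differences of Irx3, Lsr and Sox2 was not tested. No gene of these lists was at 0 in all libraries.

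Of 64 other epithelial genes listed, 23 were in the table and 22 were tested. Between genotypes, 2 rose by edgeR, 16 of 22 differences were positive, and the median was 0.16, beside 0.00362 over all genes. Cpm, a carboxypeptidase of the epithelial surface, averaged 62.4 and 71.1 CPM in knockout left and right lungs, against 42.7 and 47.9 CPM in the wild-type left and right (log2 difference 0.56, SE 0.0677, adjusted p = 0.000274, and 0.0148 with sides summed). Ildr2, an angulin like Lsr, averaged 13.6 and 11.3 CPM in knockout left and right lungs, against 9.82 and 8.89 CPM in the wild-type left and right (0.41, adjusted p = 0.022, and 0.113 with sides summed). The Hedgehog ligand Shh differed by 0.18 (adjusted p = 0.128), and Spint1 and Prss8, an inhibitor and a protease of the same surface system as Spint2, by -0.02 (adjusted p = 0.895) and -0.08 (adjusted p = 0.57). Between left and right 0 of 22 were called in the paired edgeR fit in either genotype, and 0 in the fit without pairs.

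Among the lists of other cell types, 2 of 12 tested mesenchymal genes rose in the knockout, Prrx1 (0.86, adjusted p = 7e-05, and 0.00975 with sides summed) and Col3a1 (0.19, adjusted p = 0.0237, and 0.179 with sides summed). The summed level of all 12 mesenchymal genes was 10050 to 10770 CPM in knockout left and 9905 to 11220 CPM in knockout right lungs. It was 9284 to 9862 CPM in wild-type left and 9419 to 9884 CPM in wild-type right lungs. The collagen genes Col3a1 and Col1a2 held the largest parts of this sum. Of 9 endothelial genes Sox18 rose (0.21, adjusted p = 0.0257, and 0.164 with sides summed), and of 5 mesothelial genes Upk3b fell (-0.32, adjusted p = 0.0113, and 0.0884 with sides summed). In the neighbouring endoderm list 0 of 3 tested genes were called between genotypes, with Alb at 2.84 (adjusted p = 0.162) and Apoa2 at -0.54 (adjusted p = 0.492). The share of these cell types in the values of Foxp1, Irx3 and Irx5, which mesenchyme can also express, was not tested.

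Each library was also set against the mean of its group for the 10 genes. Deviations of the 3 libraries of a group cancel out, so values above the mean in some bring values below it in others. The same count was not made over all genes, so the counts do not show that the 10 genes moved together. In the wild-type right library numbered 3, all 10 lay above the mean of their group, by 0.02 to 0.11 on the log2 scale, and in the wild-type left library numbered 3, 9 of 10 did. In the wild-type right libraries numbered 1 and 2, 2 of 10 did in each, and in both knockout libraries numbered 1, 3 of 10. In the knockout libraries numbered 2 and 3, 6 or 7 of 10 did. Within the knockout, Elf3 deviated most: by -0.27 and -0.33 in the left and right libraries numbered 1 and by 0.37 and 0.33 in those numbered 2. Foxp1 deviated the opposite way in the same libraries, by 0.14 and 0.20 in those numbered 1 and by -0.22 in the left one numbered 2. For both genes, the left and right libraries numbered 1 deviated the same way, and so did those numbered 2.

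**Figure D5:**
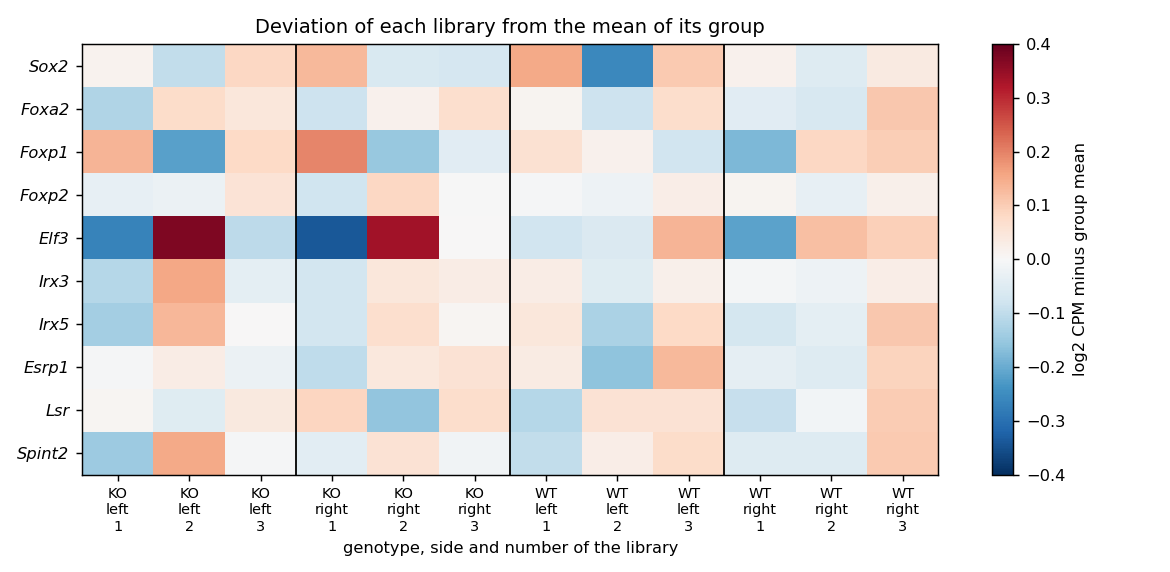
Deviation of each library from the mean of its group in log2 CPM (colour, red above and blue below), for the 10 genes in rows and the 12 libraries in columns, grouped by genotype and side. Elf3 and Foxp1 show opposite colours in the knockout libraries numbered 1 and 2, and the wild-type right library numbered 3 is red throughout.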

How the data were processed

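Total RNA of 12 libraries was sequenced. The deposited table holds counts of reads per gene as whole numbers that the authors left without normalisation; FastQC, HISAT2, featureCounts and the build GRCm38 are named per the submitters' processing notes, without versions, and the strand setting is not given in the sources used here. One incomplete row was left out, and 99.5% of the 31078 genes had a symbol for their ID. The total per library is only part of its depth, and counting error of the 10 genes is set by their 89 or more counts per library.

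Groups were compared with edgeR 4.0.16 in R 4.3.3 (filterByExpr with minimum count 10 and minimum total 15, TMM factors 0.992 to 1.01, glmQLFit and glmQLFTest) in 1 fit of 12 libraries and 4 groups with 8 residual degrees of freedom. Benjamini-Hochberg adjustment ran over all 9519 genes, with a threshold of 0.05. The 95% intervals use the test's own t distribution. limma 3.58.1 (voom) and DESeq2 1.42.0 were alternatives. Groups were said not to overlap from TMM-scaled CPM. The edgeR fit of 4 groups, apart from its interaction, and the paired fit between knockout sides were tested on simulated counts. The other fits were not, among them summed counts, limma-voom and DESeq2. Counts simulated for the fit of 4 groups held no link between left and right libraries. They therefore cannot show how that fit behaves where such libraries deviate together.

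No library was a duplicate of another in its group, since chi-square per degree of freedom was 4.7 to 14.1. Within a genotype, left and right libraries that carry the same number deviated together from their group means (r = 0.253 to 0.486 in 6 of 6 pairs; -0.393 to -0.00284 where numbers differed). Across genotypes the same number gave r = -0.121 to -0.0416. Numbers were therefore used as left and right pairs inside each genotype; the labels do not state this, and it rests on the data.

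The 10 genes and all lists were chosen with earlier results of these data known. All 10 were named whatever their values, from each other list up to 4 called genes of smallest p (or 2 where none was called), and for each called gene the 3 most alike. Pdk1, Cldn4, Afp, Lum, Lrrn4, Spint1, Prss8 and the antisense genes were named after their values were seen. A few further list genes picked by this rule are not reported here.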

Additional observations from a re-analysis of the deposited data

How the results depend on the processing

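Of 1210 alternative values of the genes' log2 differences, 1176 kept their direction and side of the threshold, 16 passed it newly, 18 lost it and 0 reversed, where a difference within 1 SE of 0 and never called has no direction; 40 of 40 group means moved by less than 1 SD without TMM. Genes called of the 10 between genotypes over both sides (1) numbered 2 with no filter on low counts, 3 by DESeq2, 0 with a replicate block as summed counts (also without the pair IntuKO 2), 0 with pairs as a random effect, 0 to 3 without 1 library, 4 without the pair IntuKO 1 and 0 without each other pair. In right lungs no filter gave 2. Between knockout sides (0), pairs as a replicate block gave 3, and 2 without the pair IntuKO 1. The cause of these changes was not tested, apart from fewer samples where libraries were left out.

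Over all genes, 543 were called over both sides, against 1084 with no filter, 141 with summed counts, 167 with summed counts without the pair IntuKO 2, 344 by limma-voom, 354 to 569 without 1 library (lowest without wild-type right 2), 263 without the pair WT 2 and 331 without IntuKO 3. In left lungs 112 became 510 with no filter, 193 by DESeq2, 177 with the number as a block, 49 with only the 2 groups and 45 to 137 without 1 library; in right lungs 144 became 595, 224 by DESeq2 and 68 to 175 without 1 library. Between wild-type sides 1 became 46 with no filter, 63 with pairs, 11 by DESeq2 and 8 with only the 2 groups; between knockout sides 0 became 31, 43 and 4, with 0 in only the 2 groups; for the interaction 0 became 6 with no filter and 2 with pairs, and remained 0 by DESeq2. The number as a block across genotypes, where numbers do not pair, left the 10 genes' counts as they were. Depth limits Elf3 most, with 89 to 190 counts per library.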
